A study of Mus musculus with 4 samples.

Results

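The genes examined here were the histone genes of the mouse, the genes of the proteins around which DNA is wound. They were chosen by gene symbol, as every symbol on the array that starts with Hist1h to Hist4h, H2af, H3f3, H1f0 or H1fx, and the class was selected on the fasted over refed ratios of these same arrays. The ratios below are therefore a description of the members. Where a member is said to be called, this is its place in a fit over all probes of the array and is no evidence about the members. There were 60 such genes among 31829 gene names on the arrays. Of these, 47 were replication-type genes, named after the clusters they lie in, and 13 were variant genes. Together they had 73 of 39429 probes, the 60-base oligonucleotides on which the RNA is measured.

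RNA came from livers of male C57BL/6J mice of 8 to 12 weeks. In the fasted group (n = 4) food was withheld for 24 h, and in the refed group (n = 4) the same fast was followed by 2 h with food. The labels name no altered allele and no other agent in either group. Each of the 4 dual-colour arrays, called replicates, held RNA of a single fasted and a single refed liver. Replicates 1 and 2 carried the fasted liver in the dye Cy5, and on replicates 3 and 4 the dyes were turned. A value is a log2 ratio of fasted over refed liver unless another quantity is named, so that a negative value is a lower level after fasting. In whole liver, fewer cells of a type and less RNA per cell cannot be told apart.

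Histones H2A, H2B, H3 and H4 form the core of the nucleosome, and the linker histone H1 binds the DNA between cores. Replication-type histone genes lie in clusters, lack introns, are expressed mainly while DNA is copied, and yield mRNAs that end in a conserved stem-loop in place of a poly(A) tail. Variant histone genes lie singly, are mostly transcribed outside DNA replication as well, and yield polyadenylated mRNAs. In adult liver few hepatocytes divide.

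The probe sequences are shown first, because they bear on which transcripts a value stands for. The RNA was amplified and labelled before hybridization, and how far this step copied mRNAs without a poly(A) tail was not tested. A value of a replication-type gene may therefore not stand for all of its mRNA. The probes of Hist2h3c1 (now H3c14) and Hist1h3d (now H3c4) both lie in the coding part of H3. They are printed with their longest shared run, of 9 bases, in capitals. The files list 3 RefSeq transcripts for the first, and at least 4 for the second.
Hist2h3c1, bases 400 to 459: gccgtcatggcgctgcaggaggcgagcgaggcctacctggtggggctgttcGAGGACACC
Hist1h3d, bases 309 to 368: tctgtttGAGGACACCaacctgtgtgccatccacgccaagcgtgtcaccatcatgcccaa

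Probes at the coding end of the H2A genes were near copies of each other. The 4 of them that begin at base 334 of their transcripts are shown with the bases that differ from the Hist1h2af probe in capitals. Each pair among them matched at 52 to 55 of 60 bases (86.7% to 91.7%), so a signal on one may come from the mRNAs of several genes.
Hist1h2af: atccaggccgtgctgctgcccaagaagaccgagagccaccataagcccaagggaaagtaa
Hist1h2ak: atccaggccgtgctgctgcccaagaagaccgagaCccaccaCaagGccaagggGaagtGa
Hist1h2an: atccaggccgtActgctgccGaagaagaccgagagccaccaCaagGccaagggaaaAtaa
Hist2h2aa2: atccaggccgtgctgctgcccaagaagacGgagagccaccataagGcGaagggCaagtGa

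Other probes lay near the 3′ end of their transcripts, and 30 bases of 5 of them are shown because they carry most of the differences described below or the stem-loop itself. Capitals mark the 16-base stem-loop in Hist2h2aa1, its first 11 bases in Hist1h2ab, and the terminal run of 6 A in Hist2h3c2. A complete stem-loop stood in 5 of 73 histone probes (6.85%) and in 7 of all 39429 probes (0.0178%).
Hist2h2aa1, bases 489 to 518: taaaaaGGCTCTTTTCAGAGCCacccactg
Hist1h2ab, bases 466 to 495: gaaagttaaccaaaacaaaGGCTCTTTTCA
Hist2h3c2, bases 988 to 1017: ataattacatcaccagacttctggAAAAAA
Hist3h2a, bases 798 to 827: ttgaaactgggttaaattgacatgttcaag
H2afx, bases 1266 to 1295: tggaacttttgcagctattacaagtttaca

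Ratios were computed for probes whose signal in at least one condition exceeded background clearly on every array. This held for 50 of 73 histone probes, from 40 of the 60 genes, against 19721 of 39429 probes in all. Of the replication-type probes 33 of 51 were kept (64.7%), and of the variant probes 17 of 22 (77.3%). By core type, 3 of 6 H1, 11 of 15 H2A, 5 of 11 H2B, 4 of 8 H3 and 10 of 11 H4 probes of the replication type were kept. Of the 23 probes left out, 12 were not well above background in any of the 8 channels. Several RefSeq transcripts were listed for 13 of the 51 replication-type probes, and all 13 were kept. With at most 1 listed transcript, 20 probes were kept and 18 were not. Of the 5 probes with a complete stem-loop, that of Hist2h2aa1 was kept.

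Fasted livers had lower levels than refed livers on 5 histone probes, and 0 of the 50 kept probes were called higher, the highest mean log2 ratio being 0.50. A call needed an adjusted p under 0.10 in limma over all 19721 kept probes and a change of at least 1.5-fold. Over all kept probes, 2.08% were called lower and 1.70% higher (3.22% and 1.17% with median centring), and 10.9% passed the adjusted p alone in either direction. Among the histone probes 7 of 50 passed the adjusted p alone. The 5 called probes were those named Hist2h3c2, Hist2h3c1, Hist1h2ab and Hist3h2a of the replication type and H2afx among the variants, and that of Hist2h3c1 is also listed for the Hist2h3c2 transcript. The other 45 kept probes had mean log2 ratios between -0.35 and 0.50. When the background model was fitted on all spots, those with an extreme local background included, 0 histone probes were called, 2 were lower at an unadjusted p under 0.05 in limma, and the means of the 5 probes lay between -1.01 and -0.24.

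**Figure D1:**
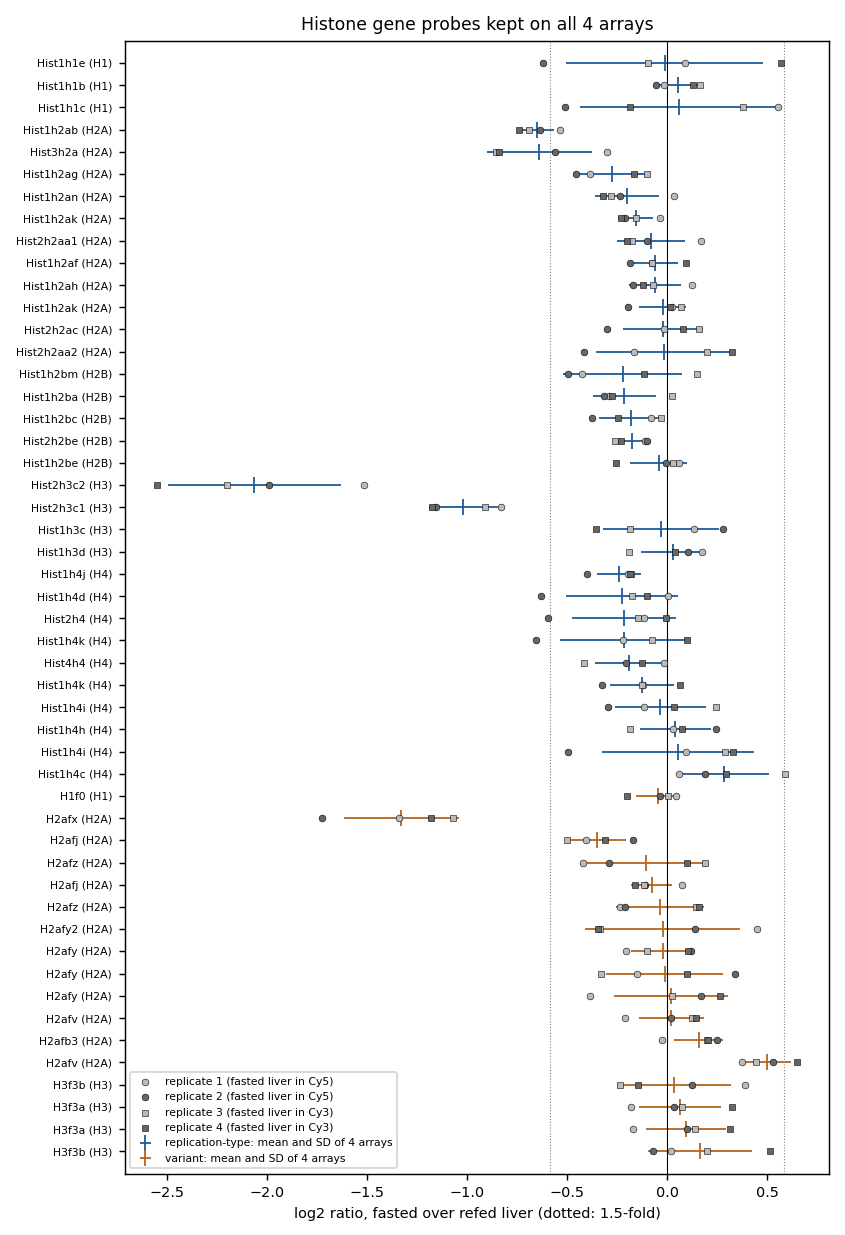
Log2 ratio of fasted over refed liver for the 50 kept histone probes, one row per probe with the core type in brackets. Points are the 4 arrays, vertical ticks with bars are the mean and SD (n = 4), and dotted lines mark 1.5-fold. The probes of Hist2h3c2, H2afx and Hist2h3c1 lie below -0.8 on every array, while most rows straddle 0.

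The largest difference was that of Hist2h3c2 (now H3c15), a gene for replication-type H3 in the Hist2 cluster. Its probe lies at chr3:96042034-96042093 on the minus strand of mm9 and begins at base 958 of the transcript. The log2 ratio was -1.52, -1.99, -2.20 and -2.55 on replicates 1 to 4. The difference was larger on the replicates with the dyes turned. The mean was -2.07 ± 0.43 (SD, n = 4), a level 4.18-fold higher in refed liver. The normalized log2 intensity was 8.72, 8.43, 7.82 and 7.76 in the fasted livers and 10.24, 10.42, 10.02 and 10.31 in the refed livers of the same arrays. Every fasted liver was below every refed liver. For probes picked by their call, here and below, such a separation is only a description. The share of all kept probes that show it is not given.

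Hist2h3c1 (H3c14) encodes the same kind of H3 in the same cluster. Its probe, at chr3:96051073-96051132 on the plus strand of mm9, is the coding one printed above, and the files list for it the transcript of Hist2h3c2 too. The log2 ratio was -0.83, -1.15, -0.91 and -1.18 on replicates 1 to 4, with a mean of -1.02 ± 0.17 (SD, n = 4), or 2.03-fold. The mean moved with the background handling, to -0.51 with normexp on all spots, -1.48 after subtraction of the local background and -1.68 with Agilent's processed signals. The normalized log2 intensity ran from 6.86 to 7.12 in the fasted livers and from 7.90 to 8.17 in the refed livers, without overlap. Since the probe does not separate the 3 listed transcripts, its value cannot be assigned to any single one of them.

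The kept H3 probes of the Hist1 cluster were near 0. Hist1h3d, whose coding probe is printed beside that of Hist2h3c1, had log2 ratios of 0.18, 0.11, -0.19 and 0.04 and a mean of 0.03 ± 0.16 (SD, n = 4). Hist1h3c had a mean of -0.03 ± 0.29 (SD, n = 4), with values of both signs. The other 4 H3 probes of the Hist1 cluster were not kept.

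H2afx (now H2ax) encodes H2A.X, the variant that is phosphorylated around DNA breaks, and its mRNA is known to exist both with the stem-loop and with a poly(A) tail. Its probe lies at chr9:44144033-44144092 on the plus strand of mm9, from base 1236 of the transcript. The log2 ratio was -1.34, -1.72, -1.07 and -1.18 on replicates 1 to 4, with a mean of -1.33 ± 0.29 (SD, n = 4), or 2.51-fold. The normalized log2 intensity was 9.40 to 9.86 in the fasted livers and 10.74 to 11.39 in the refed livers. The groups did not overlap.

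The other called probes are named after genes for replication-type H2A. The Hist1h2ab (now H2ac4) probe, at chr13:23843392-23843451 on the plus strand of mm9, had log2 ratios of -0.54, -0.64, -0.69 and -0.74 on replicates 1 to 4, the narrowest spread among the called probes. The mean was -0.65 ± 0.09 (SD, n = 4), or 1.57-fold, and the normalized log2 intensity reached 7.73 in the fasted livers and was at least 8.02 in the refed livers. The transcript of Hist1h2ab is also listed for the coding probes of Hist1h2af and Hist1h2ak, which had mean log2 ratios of -0.06 ± 0.12 and -0.02 ± 0.12 (SD, n = 4).

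Hist3h2a (now H2aw) lies outside the large clusters, and its probe is at chr11:58768954-58769013 on the plus strand of mm9, from base 768 of the transcript. Its log2 ratio was -0.30, -0.56, -0.86 and -0.84 on replicates 1 to 4, with a mean of -0.64 ± 0.26 (SD, n = 4), or 1.56-fold. The ratios on the replicates with the fasted liver in Cy5 were closer to 0 than those with the dyes turned. The same held for Hist2h3c2 and Hist1h2ab, and the reverse for H2afx. The normalized log2 intensity was 7.67 to 8.35 in the fasted livers and 8.51 to 8.78 in the refed livers. Without replicate 3 and without replicate 4 the mean was -0.57 and the probe was no longer called.

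**Figure D2:**
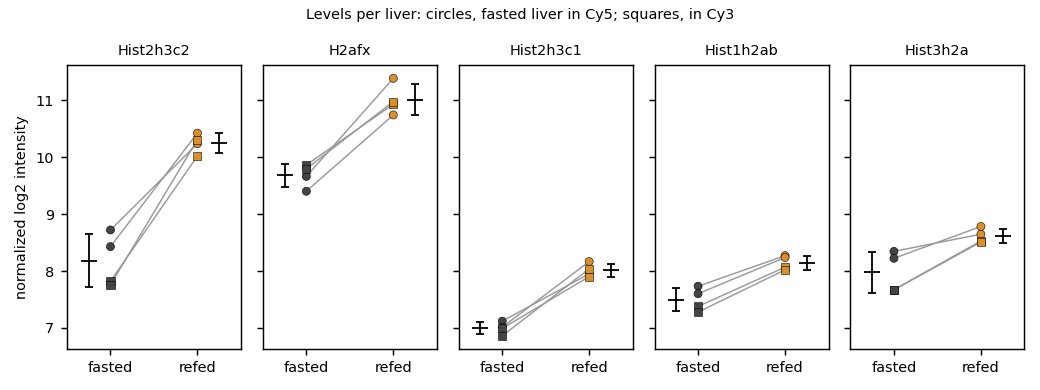
Normalized log2 intensity of the 5 called probes in each liver, with lines joining the 2 livers of an array and bars giving the mean and SD of each group (n = 4). In each panel all refed livers lie above all fasted livers, by the widest gap for Hist2h3c2. The probes were picked by their call on the same ratios, so this separation is no evidence about them. Levels are not comparable between panels.

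The remaining H2A probes of the replication type were close to 0. Their highest mean was that of the probe named Hist2h2aa2 (now H2ac19), at -0.01 ± 0.34 (SD, n = 4), from log2 ratios of -0.17, -0.42, 0.20 and 0.32. The files list 2 RefSeq transcripts for this probe and place it over the bases of the Hist2h2ac probe. Its value thus cannot be assigned to H2ac19 alone. The 7 kept coding-end H2A probes that matched the Hist1h2af probe at 80% of bases or more, Hist2h2aa2 and H2afj included, had means between -0.28 and -0.01. The Hist2h2aa1 (now H2ac18) probe with the stem-loop had a mean of -0.08 ± 0.17 (SD, n = 4). Among protein-coding genes in their order on the GRCm38.p6 assembly, H3c14 stands between H2ac18 and H4c14 (Hist2h4), and H3c15 between H2bc21 (Hist2h2be) and H2ac19. Hist2h4 had a mean of -0.22 ± 0.26 and Hist2h2be one of -0.18 ± 0.08 (SD, n = 4).

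Genes for H2B, the partner of H2A in the dimer, had 5 kept probes with means from -0.22 for Hist1h2bm to -0.04 for Hist1h2be. On Hist1h2bm the log2 ratio was -0.43, -0.49, 0.15 and -0.12, and on Hist1h2be 0.06, -0.0042, 0.03 and -0.26. Both had values on either side of 0. H4, the partner of H3, had 10 kept probes with means from -0.24 for Hist1h4j to 0.28 for Hist1h4c. The Hist1h4c probe was above 0 on all arrays, at 0.06, 0.19, 0.59 and 0.30, and Hist1h4j was below 0 on all, at -0.19, -0.40, -0.18 and -0.18. Neither was called.

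The linker histone genes Hist1h1c and Hist1h1e varied most between arrays among the kept histone probes, against a median SD of 0.18 over all kept probes. Hist1h1c had log2 ratios of 0.56, -0.51, 0.38 and -0.18 and a mean of 0.06 ± 0.49 (SD, n = 4). Hist1h1e had a mean of -0.01 ± 0.49 (SD, n = 4), from -0.62 to 0.57. H1f0, the linker variant of cells that have stopped dividing, had a mean of -0.05 ± 0.11 (SD, n = 4).

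Among the variant genes other than H2afx, the widest difference was that of H2afv, one of the genes for H2A.Z. Its brighter probe had log2 ratios of 0.38, 0.53, 0.45 and 0.65 and a mean of 0.50 ± 0.12 (SD, n = 4). This passed the adjusted p but not the 1.5-fold limit. The second H2afv probe, farther along the transcript, had a mean of 0.02 ± 0.16 (SD, n = 4), so the probes of this gene differed. H2afz, the other gene for H2A.Z, had means of -0.11 ± 0.30 and -0.04 ± 0.22 on its probes (SD, n = 4).

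H2afj, for H2A.J, also had probes that differed. The brighter, coding probe had a mean of -0.08 ± 0.10, and the one from base 1665 a mean of -0.35 ± 0.14 (SD, n = 4), below 0 on all arrays and past the adjusted p alone. H2afy and H2afy2 encode the macroH2A variants, which carry a large extra domain. H2afy had means between -0.02 and 0.02 on 3 probes, and H2afy2 had a mean of -0.02 ± 0.39 (SD, n = 4). The kept probe named H2afb3, after a gene for a short H2A variant, had a mean of 0.16 ± 0.12 (SD, n = 4), but the files place it at chr17:34103909-34103968 of mm9, while the other H2afb3 probe lies on chromosome X and was not kept. The value is thus that of the probe and cannot be assigned to this gene.

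H3f3a and H3f3b both encode H3.3, the H3 variant deposited outside replication. The brighter H3f3a probe had a mean of 0.06 ± 0.21 (SD, n = 4) and that of H3f3b one of 0.17 ± 0.26 (SD, n = 4). On these brighter probes, log2 ratios of H3f3b ran from -0.07 to 0.52, and those of H3f3a from -0.18 to 0.33. The other kept probe of H3f3a had a mean of 0.10 ± 0.20 (SD, n = 4). That of H3f3b had a mean of 0.03 ± 0.28 (SD, n = 4), from -0.23 to 0.39.

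As classes, both kinds of histone genes lay near 0. The median log2 ratio was -0.13 over the 33 replication-type probes and -0.01 over the 17 variant probes, and 0.00 over all 19721 kept probes. The replication-type median was -0.07 without replicate 2 and -0.05 with no filter on dim probes. With median centring it was -0.21, the variant median -0.08 and the median of all kept probes -0.06. Per array the replication-type median was -0.04, -0.32, -0.10 and -0.12, and the variant median -0.17, 0.04, 0.03 and 0.10. All 4 arrays were below 0 for 11 of 33 replication-type and 2 of 17 variant probes, and for 3157 of all 19721 kept probes. Since the class was selected on these ratios, nothing is read from these counts.

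The place of a probe in its transcript was set beside its ratio. The 5 probes with a complete stem-loop, of H2A, H2B and H3 genes, begin at bases 424 to 489, which served as limits for all types. The stem-loop was not located in the other transcripts, so a probe beyond base 489 need not lie past the stem-loop of its own mRNA. Of the replication-type probes, 29 began before base 424 (22 kept, 1 called), 8 between these bases (4 kept, 1 called) and 14 beyond base 489 (7 kept, 2 called). Apart from Hist2h3c2 and Hist3h2a, the kept probes in the last class had means from -0.18 to 0.06. All but 4 of the 22 variant probes began beyond base 489.

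**Figure D3:**
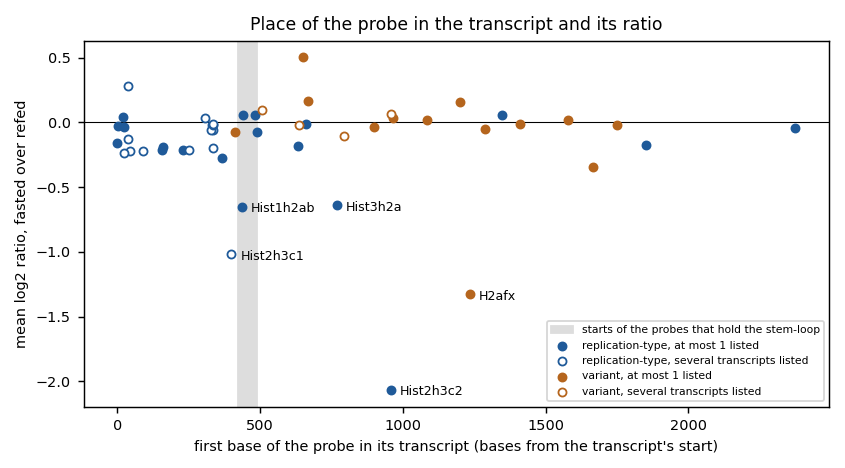
Mean log2 ratio of fasted over refed liver for each kept histone probe against the first base of the probe in its transcript. Open points are probes for which the files list several RefSeq transcripts, and the grey band spans bases 424 to 489. Called probes stand before, within and beyond the band.

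A dye effect, a Cy5 over Cy3 ratio that stays the same in both orientations, was tested in limma over all kept probes at an adjusted p under 0.10, and played no part in the choice of members. It was called for 5 of 50 histone probes, against 14.8% of all kept probes. The 5 were H2afy2 at 0.32 (adjusted p = 0.060), Hist1h3c at 0.24 (adjusted p = 0.084), Hist1h2bm at -0.24 (adjusted p = 0.096), H2afz at -0.25 (adjusted p = 0.066) and Hist2h2aa2 at -0.28 (adjusted p = 0.070), as log2 Cy5 over Cy3 in limma. None of the 5 probes called lower was among them, with adjusted p from 0.118 for Hist3h2a to 0.863 for Hist2h3c1 in limma. Hist2h3c2 was at 0.31 (adjusted p = 0.124 in limma), close to the value of H2afy2. The lower calls came from a fit without a dye term, in which a dye effect widens the spread. The absence of these 5 probes is therefore no evidence that they are free of a dye effect. Without replicate 3 or without replicate 4, 0 histone probes passed this test, against 1.98% and 1.07% of all kept probes, and 7 had an unadjusted p under 0.05 in either case.

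Promoter sequences, from 250 bases before to 50 after the start of each gene in RefSeq (GRCm38.p6), were found for 41 replication-type and 9 variant genes. They are shown for the genes after which the called replication-type probes are named, as a description of these genes. The windows of H3c15 and H3c14 matched at 284 of 285 aligned bases (99.6%). The same 120 bases of both are printed here, with the single base that differs in capitals.
H3c15, chr3:96239143-96239262, minus strand: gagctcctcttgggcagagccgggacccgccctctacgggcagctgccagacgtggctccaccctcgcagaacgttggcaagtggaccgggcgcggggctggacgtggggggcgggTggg
H3c14, chr3:96246565-96246684, plus strand: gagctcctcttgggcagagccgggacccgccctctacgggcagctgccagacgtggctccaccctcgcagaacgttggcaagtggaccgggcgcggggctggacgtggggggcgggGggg

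The 120 bases before the start of H2ac4 and H2aw are printed with motif matches on either strand in capitals. The motifs were the TATA box (TATAAA), the CCAAT box (CCAAT), the octamer (ATTTGCAT) and the core of the CRE, the element bound by CREB (TGACG). Only these exact letters were searched, so the shares below leave out other spellings of a motif.
H2ac4, chr13:23750968-23751087, plus strand: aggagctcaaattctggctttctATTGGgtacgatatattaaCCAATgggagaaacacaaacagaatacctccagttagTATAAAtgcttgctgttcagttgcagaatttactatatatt
H2aw, chr11:58954565-58954684, plus strand: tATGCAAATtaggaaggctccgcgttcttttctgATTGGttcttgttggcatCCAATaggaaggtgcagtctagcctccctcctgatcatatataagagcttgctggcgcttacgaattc

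In the full windows of 300 bases, a CCAAT box stood in 37 of 42 replication-type promoters (88.1%), in 6 of 9 variant promoters (66.7%) and in 37.4% of 32851 promoters of all genes. A TATA box stood in 25 of 42 replication-type promoters (59.5%), 1 of 9 variant promoters and 13.6% of all. The octamer was in 13 of 42 (31.0%), 1 of 9 and 1.74%, and the CRE core in 15 of 42 (35.7%), 2 of 9 and 20.8%. Of the 4 genes shown, all had a CCAAT box and H2ac4 had the letters TATAAA. H2ac4 and H2aw had the octamer, and H2aw and H3c15 the CRE core. The tatataag near the end of the printed H2aw bases was not among the letters searched. The CRE core of H3c15 lies in the last 15 bases of its window, which the window of H3c14 does not reach, so the windows do not show whether these promoters differ there. The promoter of H2ax was not analysed here. A match of letters is a description and not a binding site.

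Genes that work with histones were mostly near 0. Of 13 kept genes for histone mRNA processing and transcription, such as Slbp, which encodes the protein that binds the stem-loop, 0 were called, with a median log2 ratio of 0.00. In limma 0 passed the adjusted p alone and 2 an unadjusted p under 0.05, and SAM called 0. Slbp itself was at 0.01 ± 0.19 (SD, n = 4). Of 19 kept genes for histone chaperones and deposition, 0 were called by limma or SAM, and 2 passed the adjusted p alone and 5 an unadjusted p under 0.05 in limma, with a median of -0.07. The share of all kept probes under that unadjusted limit is not given here. Counts at that limit, here and elsewhere, therefore cannot be set against the whole array. Of 17 kept S phase and proliferation genes, 1 was called, higher in fasted liver. This was Rrm2, a subunit of ribonucleotide reductase, at 0.47, 1.17, 0.76 and 0.25, with a mean of 0.66 ± 0.40 (SD, n = 4; adjusted p = 0.061 in limma). The median of that list was -0.03.

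Markers of other cells differed between some livers. All 8 hepatocyte markers were kept, with means from -0.14 to 0.84 and a median of 0.12. Of these 1 was called, 2 passed the adjusted p alone and 3 an unadjusted p under 0.05 in limma, and SAM called 1. The called gene was Tat, an enzyme of tyrosine breakdown, higher at 0.84 ± 0.46 (SD, n = 4; adjusted p = 0.045 in limma). Of the pancreatic acinar markers 5 of 16 genes were kept. Replicate 3 gave a median log2 ratio of -3.11 for them, while the other arrays lay between -0.05 and 0.04, and their summed intensity ran from 1316 to 1812 in fasted and from 1234 to 19746 in refed livers. Without replicate 3, the mean of Hist2h3c2 was -2.02, with H2afx at -1.42, Hist2h3c1 at -1.05, Hist1h2ab at -0.64 and Hist3h2a at -0.57, and all but Hist3h2a were called. Of the erythroid markers 5 of 8 genes were kept, with medians of 2.08, -0.26, 2.37 and 0.25 on replicates 1 to 4 and sums from 27536 to 131439 in fasted and from 16110 to 36865 in refed livers. In limma 0 of them were called and 3 had an unadjusted p under 0.05, and SAM called 2. Of the acinar markers limma and SAM called 0, and 0 had an unadjusted p under 0.05. Of lymphocyte and myeloid markers 7 of 13 genes and of Kupffer cell markers 5 of 7 genes were kept, with medians of 0.09 and 0.07. In limma 0 of these were called and 0 had an unadjusted p under 0.05, and SAM called 0. The part of any of these cell types in the histone ratios was not tested.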

How the data were processed

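Array spots were quantified by the authors with Agilent's Feature Extraction software (10.10.1.1 per the file headers). The deposited scanner files hold raw and processed intensity per spot and channel, and a deposited table holds the authors' log2 ratios after loess in limma. Across spots, the authors' ratios correlated with those computed here at r = 0.53, 0.92, 0.95 and 0.96 on replicates 1 to 4. Why replicate 1 was lower was not tested. From the raw median signals, 55 of 177588 spots with a local background above 3 times the array's median were left out, none of them of a histone probe. The rest were background-corrected (normexp, offset 50) and loess-normalized per array (limma 3.58.1, R 4.3.3). Control spots and flagged spots were left out, spots of a probe were averaged, and 19721 of 39429 probes were kept. Levels per liver followed quantile normalization of mean intensities. Median brightness was 40 to 96 against local backgrounds of 20 to 35, and the number of arrays limits precision. All arrays shared 1 slide and 1 scan.

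Ratios were tested with lmFit and eBayes, two-sided. P-values were adjusted over all kept probes by the Benjamini-Hochberg method, and SAM was rebuilt beside limma. The steps were tested on simulated data. For the histone genes, selected on this contrast, the calls are descriptive. Named were every called histone gene, every variant gene with a kept probe, and the highest and lowest gene of each replication-type core histone, by the brightest probe; others were named after their values were seen, for shared transcripts, sequence or position. The members, gene lists and motifs were chosen with earlier results of these data known. Coordinates of probes are those of the files (mm9), and 68 of 73 histone probes were matched to RefSeq by accession.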

Additional observations from a re-analysis of the deposited data

Results flagged for a closer look

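The log2 ratio of Hist1h4j, a gene for replication-type H4, was -0.19, -0.40, -0.18 and -0.18 on replicates 1 to 4, and replicate 2 stood apart from the others by 0.948 of the whole range. This was 1 of 25 values examined for an isolated array, of which chance alone would mark about 1 in 20.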

How the results depend on the processing

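Of 23 alternatives, normexp on all spots changed the calls most. It called 0 replication-type and 0 variant probes lower, against 2 histone probes lower at an unadjusted p under 0.05 in limma, and 15 probes of all genes were called lower and 5 higher. Hist2h3c2 was then at -1.01, H2afx at -0.93, Hist2h3c1 at -0.51, Hist1h2ab at -0.31 and Hist3h2a at -0.24; the cause was not tested. Under a 2-fold limit 2 replication-type probes were called lower, against 0.669% of all probes. With no fold limit 2 variant probes were called lower and 1 higher, against 6.13% and 4.74% of all. The dye effect was called for 2 histone probes after subtraction of the local background (11.4% of all) and for 0 with Agilent's processed signals (2.31%) or median centring (2.89%). Leaving out each replicate in turn gave 0 to 5 probes with a dye effect, 3 to 4 replication-type probes called lower and 1 variant probe called lower, while over all probes 1.07% to 11.8% had a dye effect and 529 (without replicate 1) to 257 (without replicate 3) were called lower. With Agilent's processed signals Hist2h3c1 was at -1.68, Hist1h2ab at -0.91 and Hist3h2a at -0.85. None of the 5 called probes turned direction under the 17 alternatives that gave a ratio for each. With 4 arrays, a small difference cannot be told from 0.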
